A study of Copadichromis virginalis x Mchenga conophoros with 6 samples.

Results

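Translation machinery genes encode the ribosomal proteins, the initiation and elongation factors and the enzymes that load amino acids onto tRNA. They were chosen by symbol: those of ribosomal proteins, of factors beginning with eif or eef, and of aminoacyl-tRNA synthetases, leaving out the rps6k kinases, among the rows listed in both pit digging and both isolated count tables. The choice gave 71 of 8304 rows. A further 44 of the 115 matching symbols found in any table were missing from at least 1 of those tables and were left out, among them the cap-binding factor eif4e, eif5, eef1g, rplp1 and rpl5. Of the 71 genes, 54 were also listed in both castle building tables.

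The animals were male F1 hybrids of the Lake Malawi cichlids Copadichromis virginalis, in which males dig pits, and Mchenga conophoros, in which males build sand castles. Before sampling, hybrids had taken part in a behavioural paradigm aimed at pit digging, at castle building or at social isolation, with 2 libraries for each, and all shared the same cross and sex. Age, brood, direction of the cross and drug treatment are not given by the labels. RNA came from the whole brain, and each gene has a read count for either parental allele.

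As background, translation begins when eIF2 brings the initiator tRNA to the small ribosomal subunit, with eIF3 as a scaffold, while the eIF4 factors bind the cap of the mRNA and unwind it. The exchange factor eIF2B recharges eIF2, and kinases that phosphorylate eIF2 under stress block that step. In neurons, translation near synapses is known to be part of lasting synaptic change. In an F1 hybrid both parental alleles sit in the same cells and meet the same factors, which is why their counts are compared within an animal.

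Library totals ranged from 2155680 counts in isolated replicate 1 to 3294397 counts in pit digging replicate 1. In castle building, the difference between the libraries was smaller than the sampling noise: chi-square per degree of freedom was 0.495, where it was 27.3 in pit digging and 20.4 in isolation. The castle building libraries gave identical counts on both alleles for 18 of the 54 genes and for 25.6% of all rows they share. In pit digging and isolation 0.158 and 0.184% of such rows were identical. The castle building libraries were therefore counted as 1 sample, their rounded mean, with no replicate check of its own. As a check of the brain label, 6 of 7 neuronal markers, all but gap43, were listed in every library and summed to 2655 to 4918 CPM. Whether replicates came from separate animals or broods is not stated, and p-values then cover no more than the spread among these libraries, which may be technical. With 2 against 2 libraries an exact permutation test cannot go below a p of 0.333, so tests rest on a model fitted across all genes.

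Translation genes as a whole divided their counts almost evenly between the alleles. Pooled over the 71 genes, the C. virginalis allele held 50.01 and 50.42% in pit digging and 50.35 and 50.09% in isolation, while all rows listed in the 4 tables held 54.1 and 53.2%, then 52.7 and 52.9%. The median gene stood at 50.2%, against 51.0% over all rows tested. Ribosomal proteins alone gave 49.4, 50.2, 49.8 and 48.5% in the same order of libraries.

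Precision followed depth. Among the 18 genes with a mean of at least 500 counts, the share varied over the 4 libraries by a median of 3.66 percentage points. The smallest range was 0.989 for rplp0, the acidic stalk protein of the large subunit, and the largest 13.47 for rpl10a. Despite its mean, rpl10a had only 17 counts in pit digging replicate 2 and 19 in isolated replicate 1. Among the 28 genes with at least 100 but under 500 counts the median range was 8.72 points, and among the 25 genes below 100 counts it was 17.1. In the latter class a departure of several points from an even share is within the spread between libraries.

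**Figure D1:**
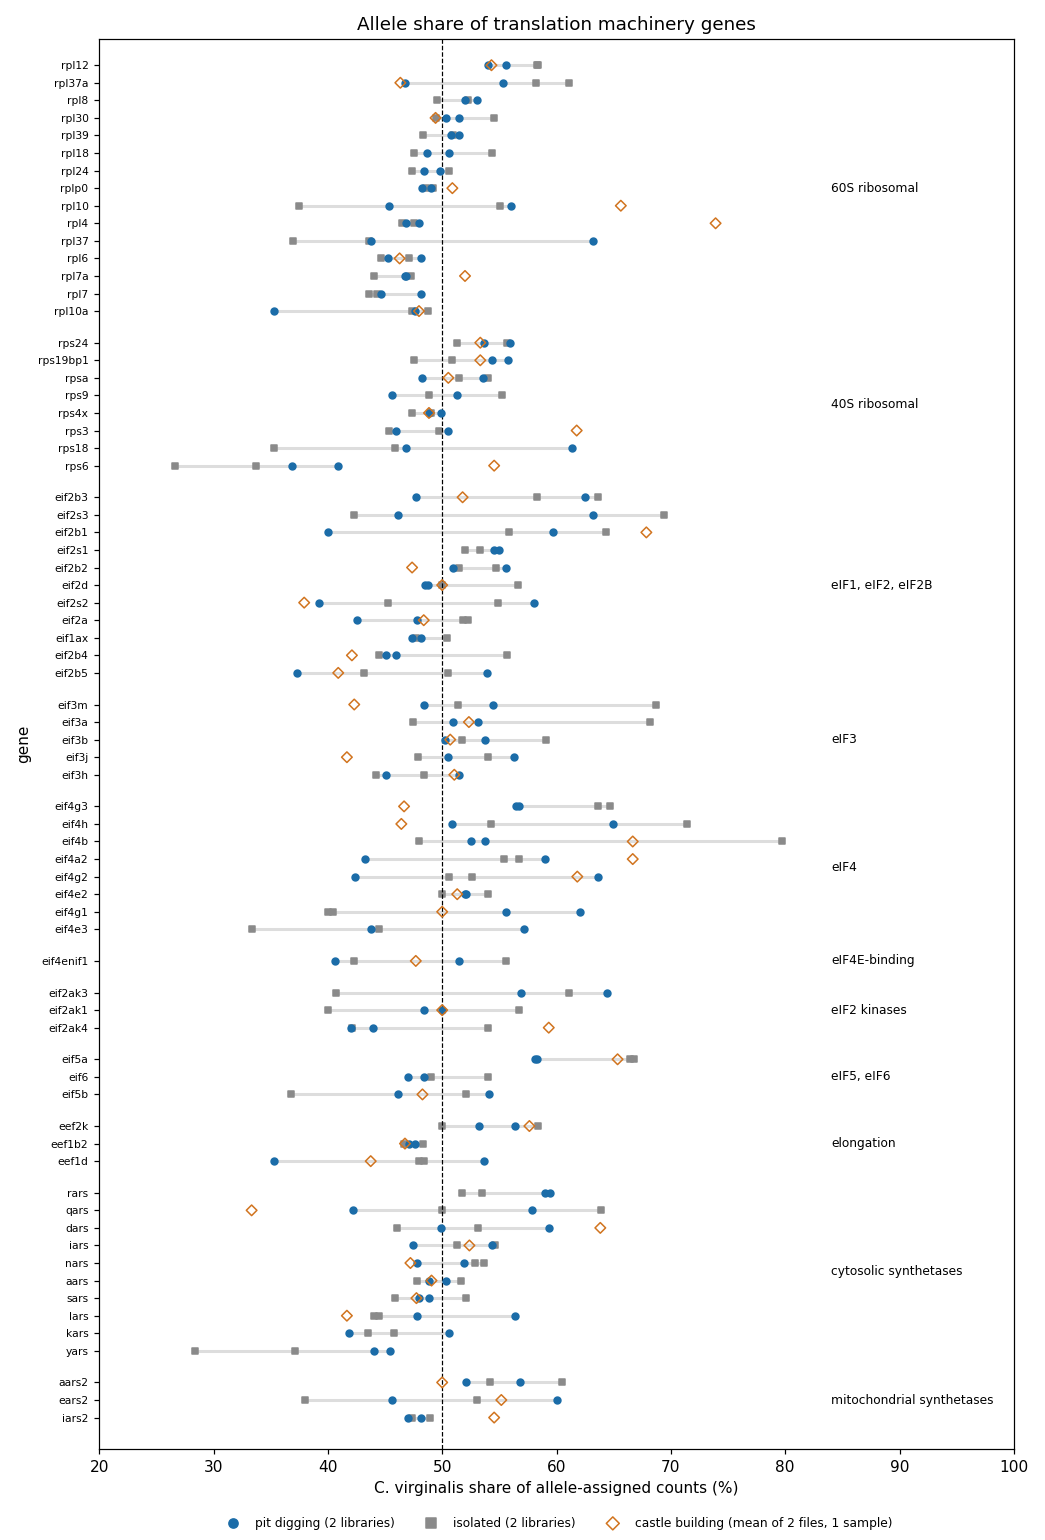
Share of counts on the C. virginalis allele (percent, x axis) for translation genes grouped by role, with 1 point per pit digging and isolated library and 1 open diamond for the castle building sample where the gene is listed. The grey bar spans the 4 replicated libraries and the dashed line marks an even share; eif5a lies to the right of it, and rps6 and yars to the left, in all 4.

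The first question was which of these genes the hybrid brain reads unequally from its parental alleles. Averaged over pit digging and isolation, 5 of 71 genes passed, with an adjusted p below 0.05 in edgeR's quasi-likelihood test (Benjamini-Hochberg over all rows tested): eif5a and rpl12 had more counts from C. virginalis, and rps6, yars and rpl7 had more from M. conophoros. That is 7.04% of the genes, against 9.72% of all rows tested. By direction, the background was 9.05% higher and 0.666% lower on the C. virginalis allele. An unadjusted p under 0.05 was found for 13 of the 71. The share of all rows at that unadjusted cut was not computed, here or for the like counts below, so these counts show no excess or lack.

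The gene eif5a, whose hypusine-bearing product helps the ribosome through difficult peptide bonds, had a C. virginalis share of 58.1 and 58.3% in pit digging and 66.8 and 66.5% in isolation. All 4 libraries lay above an even share, and the groups did not overlap. The log2 ratio of C. virginalis to M. conophoros was 0.74 ± 0.08 (SE, 1.67-fold; edgeR adjusted p = 0.00135). Leaving out any 1 of the 4 libraries kept the call, with adjusted p between 0.00877 and 0.0272, and DESeq2 gave an adjusted p of 0.0089.

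For rps6, the small subunit protein that S6 kinases phosphorylate, the C. virginalis share was 40.9 and 36.8% in pit digging and 26.7 and 33.7% in isolation, on 98 to 154 counts per library. All 4 libraries lay below an even share, isolation the lower of the groups. The log2 ratio was -0.93 ± 0.14 (SE; edgeR adjusted p = 0.0056). Without isolated replicate 1 the adjusted p was 0.0698.

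The remaining calls were smaller or rested on fewer counts. The large subunit protein gene rpl12 gave 55.5, 54.0, 58.3 and 58.4% in pit digging and isolation (log2 ratio 0.38 ± 0.07 SE, edgeR adjusted p = 0.0176). For rpl7, another large subunit protein, the shares were 44.7, 48.1, 44.3 and 43.6% (log2 ratio -0.28 ± 0.07 SE, edgeR adjusted p = 0.0423). The tyrosyl-tRNA synthetase gene yars gave 44.1, 45.5, 37.1 and 28.4% (log2 ratio -0.69 ± 0.16 SE, edgeR adjusted p = 0.0319). Each of the 3 kept its side of an even share in all 4 libraries. None of these 3 kept its call when any 1 library was left out, with adjusted p from 0.0543 to 0.226, and under DESeq2 their adjusted p ranged from 0.375 to 0.814. Scaling each allele library on its own by TMM, under which the median log2 ratio of all rows fell by 0.09, changed the split to 1 gene higher (eif5a) and 6 lower (rpl4, rpl6, rpl7, rpl7a, rps6 and yars), where 7.1% of all rows were higher and 1.43% lower, with rpl12 at an adjusted p of 0.0532.

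Among the other ribosomal protein genes with deep counts the shares were mostly close to even and tight. An exception was rpl10a, at 35.3% in pit digging replicate 2 on 17 counts. The share of rplp0 was 49.0, 48.2, 48.6 and 49.2%, with a mean of 48.8% ± 0.435 (SD, n = 4). For rpl4, a large subunit protein near the exit tunnel, it was 46.9, 48.0, 47.5 and 46.5%, and for rpl7a 46.8, 46.8, 47.3 and 44.0%. These genes lay just under an even share in every library, and none of the 3 passed. On the other side, rps24, a small subunit protein, had 53.6, 55.9, 55.7 and 51.3% (log2 ratio 0.24 ± 0.07 SE, edgeR adjusted p = 0.093).

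In all, 10 genes had more than 50% on the C. virginalis allele in all 4 libraries, where 18.9% of all rows did, and 11 had less, where 8.63% did. The 10 were rpl12, rps24, the eIF2 subunit eif2s1, the eIF2B subunit eif2b2, eif3b, eif4g3, eif4h, eif5a, rars and the mitochondrial alanyl-tRNA synthetase aars2. The 11 were rpl4, rpl6, rpl7, rpl7a, rpl10a, rplp0, rps4x, rps6, the exchange factor subunit eef1b2, yars and the mitochondrial isoleucyl-tRNA synthetase iars2. They make up 14.1 and 15.5% of the 71 genes. Both counts use a fixed line of 50%, and all rows have a median of 51.0%.

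Genes with an eif symbol, which include the eIF2 kinases and eif4enif1 and are not all initiation factors, held 1 call among 31, eif5a. The cap-complex scaffold eif4g3 had C. virginalis shares of 56.7, 56.5, 64.7 and 63.6% (log2 ratio 0.61 ± 0.16 SE, edgeR adjusted p = 0.0539). The helicase cofactor eif4h had 50.8, 64.9, 54.3 and 71.4%, so that replicates within a paradigm differed more than the paradigms did (adjusted p = 0.0875). Its relative eif4b, which also stimulates the eIF4A helicase, stood near even in 3 libraries (53.7, 52.5 and 48.0%) and at 79.7% in isolated replicate 1, on 128 counts. Isolated replicate 2 was the odd library for the eIF3 subunits eif3a (53.1, 51.0, 47.5 and 68.2%) and eif3m (48.4, 54.4, 51.4 and 68.7%). None of these 3 passed. Without isolated replicate 1 eif3a did (adjusted p = 0.0377), and without isolated replicate 2 eif4b did (adjusted p = 0.0183), so 1 library decided each.

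The eIF2B exchange factor is built from subunits that work as a complex, and 5 of them were measured. Their mean shares ran from 46.2% for eif2b5 to 58.0% for eif2b3, with SDs over the 4 libraries from 2.30 to 10.5 points, and none passed. The stress kinases of eIF2, namely the heme-sensing eif2ak1, the endoplasmic reticulum kinase eif2ak3 and the amino-acid-sensing eif2ak4, had mean shares of 48.8, 55.8 and 45.5%, and none passed. Among the genes with an eef symbol, eef1b2 was tight at 47.4% ± 0.719 (SD, n = 4), and eef2k, the kinase that inactivates eEF2, had 54.5% ± 3.68. None of these 3 genes passed, and eif5a, counted by its symbol, is not among them.

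Among the synthetases, which charge tRNAs with their amino acids, yars was the only call of 14. The alanyl-tRNA synthetase aars had C. virginalis shares of 50.3, 48.9, 51.6 and 47.8%, and the asparaginyl enzyme nars 51.9, 47.8, 53.6 and 52.9%. Both straddled an even share. The glutaminyl enzyme qars, on 56 to 90 counts, spread from 42.2% in pit digging replicate 1 to 63.9% in isolated replicate 1. Of the mitochondrial enzymes, iars2 was tight at 48.2, 47.0, 48.9 and 47.4%, aars2 had 56.8, 52.1, 54.2 and 60.5% (log2 ratio 0.36 ± 0.14 SE, edgeR adjusted p = 0.211), and ears2 ranged from 38.0 to 60%. No mitochondrial enzyme passed.

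Each paradigm was also tested on its own. In pit digging 0 of 71 genes passed, where 6.22% of all rows did (edgeR; 7 genes had an unadjusted p under 0.05, and DESeq2 called 0 of the 66 it gave an adjusted p, where it called 3.1% of all such rows). The smallest adjusted p there was 0.0607, for eif5a. In isolation 3 of 71 passed, where 4.26% of all rows did (4% higher and 0.267% lower on the C. virginalis allele): eif5a (log2 ratio 1.0 ± 0.12 SE, edgeR adjusted p = 0.00367), rps6 (-1.21 ± 0.21 SE, adjusted p = 0.0215) and yars (-1.07 ± 0.23 SE, adjusted p = 0.0498). Without isolated replicate 1 none passed and without isolated replicate 2 eif4b alone did, with eif5a then at adjusted p = 0.0887 and 0.102. Without pit digging replicate 1 or 2, yars had an adjusted p of 0.0795 or 0.0917.

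Whether the allele ratio itself differed between pit digging and isolation was tested directly, and 0 of 71 genes passed, nor did any of the 8254 rows (0% in both directions). DESeq2 called 0 of the 71, where it called 0.0363% of all rows. An unadjusted p under 0.05 was found for 4 genes. The scaffold eif4g1 had C. virginalis shares of 62.0 and 55.6% in pit digging and 40.4 and 40% in isolation, on 35 to 137 counts (difference of log2 ratios 1.14 ± 0.33 SE, edgeR adjusted p = 0.679). Its groups did not overlap and lay on opposite sides of an even share. For eif5a the difference was -0.52 ± 0.17 (SE, adjusted p = 0.764), for the large subunit gene rpl37 1.21 ± 0.40 (adjusted p = 0.764) and for yars 0.75 ± 0.31 (adjusted p = 0.904). The rpl37 difference rests on pit digging replicate 1 at 63.2%, since the other 3 libraries had 43.8, 43.6 and 37.0%.

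Without regard to a threshold, the C. virginalis share of 10 genes was higher in both pit digging libraries than in both isolated ones, where 18.6% of all rows were, and that of 8 genes was lower, where 15.5% were. The 10 included eif4g1, rps6, yars, rars and rpl7, and the 8 included eif5a, eif4g3, rpl12, eif6 and nars. These are 14.1 and 11.3% of the 71 genes.

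In the castle building sample, 0 of 54 genes passed for an unequal allele ratio, where 1.71% of all rows did (edgeR; 4 had an unadjusted p under 0.05, and DESeq2 called 0 of the 38 it gave an adjusted p, where it called 1.16% of all such rows). In this fit the single sample is taken to vary as much as the replicated groups do. The eif5a share was 64.6 and 65.9% in the castle building libraries, beside 66.8 and 66.5% in isolation (log2 ratio 0.91 ± 0.17 SE, edgeR adjusted p = 0.052). For rps6 the castle building libraries had 53.3 and 55.6%, on 45 counts each, with exact Clopper-Pearson 95% intervals from 37.9 to 68.3% and from 40 to 70.4%, which cover counting error only. Those shares lay above all 4 other libraries, on the other side of an even share (castle building against isolation 1.48 ± 0.46 SE on the log2 scale, adjusted p = 0.402). For rpl12 they were 54.3 and 53.9%.

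The allele ratio of rpl4 in castle building stood apart from its other libraries but on few counts. Its 6 M. conophoros counts in either castle building library are the fewest per allele listed, and the lowest sum listed there was 21. The SEs given below take their spread from the replicated libraries and need not cover the counting error of so few counts. Both castle building libraries gave 17 of 23 counts to the C. virginalis allele, 73.9%, with an exact 95% interval from 51.6 to 89.8%, where the other 4 libraries lay between 46.5 and 48.0%. The log2 ratio of pit digging minus that of castle building was -1.63 ± 0.33 (SE, edgeR adjusted p = 0.302), and that of castle building minus isolation 1.66 ± 0.33 (SE, adjusted p = 0.314). Neither contrast called any of the 54 genes, where 0.161% and 0.263% of all rows passed. An unadjusted p under 0.05 was found for 2 and 5 genes, and DESeq2 called 0 of the 30 and 27 genes it gave an adjusted p, where it called 0.31% and 0.482% of all such rows.

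The sum of both alleles served as the level of a gene, in CPM (counts scaled to a common library size, here with TMM factors). A sum follows expression only as far as reads over informative sites do, and in whole brain fewer cells of a type and less RNA per cell cannot be told apart. Levels are compared here between samples of a gene, not between genes.

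Between pit digging and isolation, no translation gene passed for level. That holds for all 71, and no row of 8254 passed either (0%; edgeR; 3 of the 71 had an unadjusted p under 0.05). The median log2 difference was -0.03, against 0.00 over all rows. In 13 genes both pit digging libraries lay above both isolated ones, where 21.2% of all rows did, and in 14 they lay below, where 22.2% did.

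The eIF4 and eIF6 genes held the widest separations. The level of eif4b was 195 and 190 CPM in pit digging and 62.2 and 34.1 in isolation. The groups did not overlap (log2 difference 2.0 ± 0.36 SE, edgeR adjusted p = 0.233). DESeq2 called this gene alone of the 71 (adjusted p = 0.00318), where it called 1.89% of all rows. For eif6, which keeps free large subunits from joining small ones, the level was 145 and 110 in pit digging and 51.5 and 39.5 in isolation (log2 difference 1.49 ± 0.29 SE, edgeR adjusted p = 0.252). Again both pit digging libraries were the higher.

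The scaffold genes eif4g3 and eif4g1 were ordered the same way. Levels of eif4g3 were 33.7 and 54.0 in pit digging against 16.5 and 19.99 in isolation (log2 difference 1.26 ± 0.39 SE, adjusted p = 0.416). Levels of eif4g1 were 44.3 and 31.5 against 22.8 and 15.9 (0.97 ± 0.39 SE, adjusted p = 0.511). The cap-binding paralog eif4e3 was ordered the other way, at 5.18 and 7.005 against 21.9 and 9.54 (-1.37 ± 0.53 SE, adjusted p = 0.503), on 14 to 45 counts. Of the 8 eIF4 genes 7 had a positive difference, with a median of 0.65, and of the 11 eIF1, eIF2 and eIF2B genes 1 did, with a median of -0.25. Over all rows tested the median was -0.004. Role groups were chosen with earlier results of these data known, and no gene in either group passed.

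Most deeply counted ribosomal protein genes had overlapping levels in pit digging and isolation. The level of rps24 was 590 and 584 CPM in pit digging and 621 and 513 in isolation, and that of rpl39 was 527 and 520 against 545 and 476. In both genes the pit digging libraries lay between the isolated ones. For rpl4 the order was fixed, at 713 and 579 in pit digging against 844 and 825 in isolation, and rpl7 likewise had 503 and 498.8 against 601 and 568. The level of rpl8 was also lower in both pit digging libraries, at 785 and 594 against 1418 and 799. Over all rows, 22.2% were ordered this way. For rpl18, 1 library stood apart: pit digging replicate 2 had 1207, beside 457 in replicate 1 and 433 and 353 in isolation. The eIF3 subunit eif3m was lower in both pit digging libraries (150 and 96.6) than in isolation (177 and 286), with a log2 difference of -0.91 ± 0.37 (SE, edgeR adjusted p = 0.514). For the elongation kinase eef2k the level was 96.1 and 105.6 against 84.6 and 84.03, again without overlap and without a call.

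**Figure D2:**
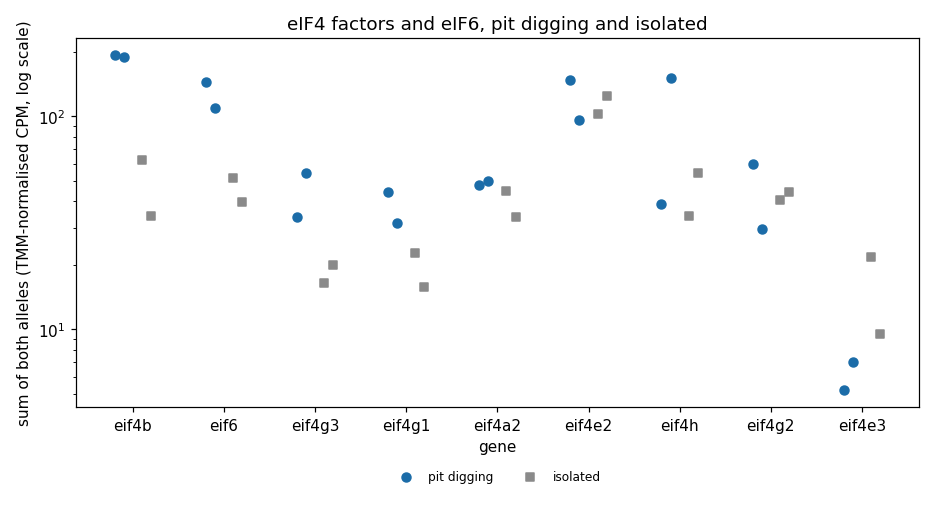
Summed level of the 8 eIF4 genes and of eif6 in each pit digging and isolated library (TMM-scaled CPM, log axis). Pit digging lies above isolation without overlap for eif4b, eif6, eif4g3, eif4g1 and eif4a2, and below it for eif4e3.

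Levels in castle building were compared with both other paradigms, and ribosomal protein genes were among the calls of each contrast. Against pit digging, 3 of 54 genes passed, all lower in castle building: rpl4, rps24 and eif4b, 5.56% where 4.69% of all rows passed and 3.27% passed in that direction. Against isolation, rpl4, rps24 and rpl30 passed, again all lower in castle building, where 6.72% of all rows passed and 4.28% in that direction. The contrasts share the castle building sample, so they are not independent. Levels given with castle building were scaled over the rows listed in all 6 tables. A library's CPM therefore differ from those given above for pit digging and isolation alone.

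The level of rpl4 was 771 and 616 CPM in pit digging and 914 and 890 in isolation, but 11.2 in castle building, from 23 counts in each of its libraries. The lowest sum listed in castle building was 21 counts, so rpl4 stood near the floor there. All 4 other libraries lay far above the castle building level. Pit digging exceeded castle building by 5.95 ± 0.36 on the log2 scale (SE, 61.8-fold, edgeR adjusted p = 0.0408), and castle building was below isolation by -6.33 ± 0.37 (SE, adjusted p = 0.0359). With only M. conophoros counts the former value was 6.98 and with only C. virginalis counts 5.26.

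For rps24 the levels were 638 and 622 in pit digging, 672 and 553 in isolation and 153 in castle building. The log2 differences were 2.04 ± 0.27 from pit digging (SE, edgeR adjusted p = 0.0415) and -2.0 ± 0.27 for castle building against isolation (adjusted p = 0.0383). The large subunit gene rpl30 had 426 and 357, then 440 and 408, against 126 in castle building. It passed against isolation (-1.75 ± 0.28 SE, adjusted p = 0.0447) and had 1.64 ± 0.27 against pit digging (adjusted p = 0.0533). The castle building sample was the lowest for both genes, without overlap.

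Not every ribosomal protein gene was low in castle building. The level of rpl7a was 608 in castle building, inside the range of 545 to 691 in the other libraries, and rplp0 had 490, inside its range of 421 to 506. The other gene past the threshold, eif4b, had 20.4 in castle building, against 211 and 202 in pit digging (3.34 ± 0.53 SE on the log2 scale, adjusted p = 0.049) and 67.3 and 36.7 in isolation (-1.35 ± 0.49 SE, adjusted p = 0.153).

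**Figure D3:**
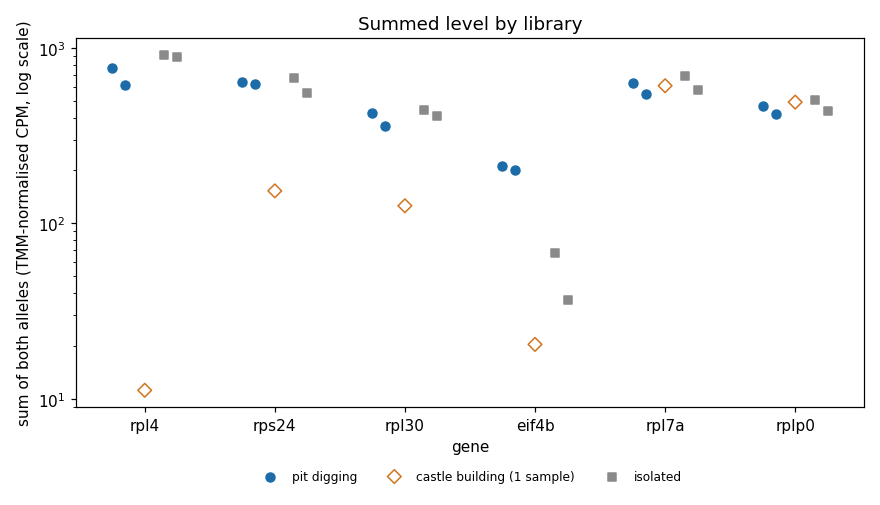
Summed level (TMM-scaled CPM, log axis) of the 4 genes that passed in a castle building contrast and of rpl7a and rplp0, 1 point per pit digging and isolated library and 1 open diamond for the castle building sample. The castle building sample is the lowest for rpl4 (11.2), rps24, rpl30 and eif4b, and inside the range of the others for rpl7a and rplp0.

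All of these level calls depended on having all 4 other libraries. Without any 1 of the pit digging or isolated libraries, 0 of 54 genes passed in either contrast, and 0% of all rows did, while the log2 value of rpl4 against pit digging then lay between 5.76 and 6.08, with adjusted p from 0.0698 to 0.129. Without castle building replicate 1, eif4b had an adjusted p of 0.0524. DESeq2 called 5 of the 44 genes it gave an adjusted p against pit digging, where it called 15.1% of all such rows, and 7 of 52 against isolation, where it called 14.5%, adding eif3a in both, rpl30 in the former, and eif3m, iars and rps3 in the latter, all lower in castle building.

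By role, castle building lay below all 4 other libraries in 28 of 54 genes, where 33.4% of all rows did, and above all 4 in 9, where 32% did. The median log2 difference of pit digging from castle building was 0.64, against 0.05 over all rows, and that of castle building from isolation -0.48, against -0.05. Of the 14 cytosolic ribosomal proteins, counted without rps19bp1, whose product binds one of them, 9 were below and 0 above, with medians of 0.90 and -0.91. Of the 5 eIF3 genes 4 were below, and of the 7 cytosolic synthetases 5 were. Among the mitochondrial synthetases, ears2 and iars2 were above all 4 others and aars2 below. The eIF2B subunits eif2b3 (54.4 against 12.8 to 23.5) and eif2b4 (92.2 against 37.8 to 80.5) and the eIF4E-binding transporter eif4enif1 (63.1 against 22.03 to 37.3) were above as well. So were the leucyl- and seryl-tRNA synthetases lars and sars and the scaffold eif4g3. No gene above all 4 others passed.

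Some cell type markers moved with castle building too, and their part in these levels was not tested. Neuronal markers summed to 3923 and 4028 CPM in castle building, inside the range of 2655 to 4918 in the other libraries. Of 4 oligodendrocyte markers, mbp and mpz were listed in every library and summed, with olig2 where listed, to 4832 to 5766 CPM in pit digging and isolation and to 829 and 831 in castle building. The 3 listed of 4 astroglial markers gave 1630 to 2518 and 4227 to 4232, and the 2 listed of 4 microglial markers 134 to 222 and 79.4 to 80.0. The markers gfap, ptprc and aif1 were listed in none of the tables. The 71 genes made up 0.937 to 1.16% of the counts in the pit digging and isolated libraries. In castle building only 54 of them were listed, and these made up 0.498 and 0.497%. Over the 54 genes and the rows listed in all 6 tables the shares were 0.541 and 0.539% in castle building, 0.964 and 0.70% in pit digging and 0.908 and 0.919% in isolation.

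A listing in the tables itself varied. Of the 71 genes 17 were missing from both castle building tables, 23.9% where 17.5% of all rows were. The genes and these rows were chosen as listed in the other 4 libraries, so they could be missing only from castle building. Without that choice, the castle building libraries listed 83 and 82 matching symbols, among 8829 and 8834 rows. The other libraries listed 87 to 104, among 9994 to 11716 rows. Castle building thus listed fewer rows of all kinds, and these counts show no particular lack of matching symbols. Since the tables hold only genes with at least 6 counts on each allele, a missing gene is not a count of 0. The lowest sum listed was 21 in castle building and 12 in the other libraries. Most rows missing from castle building had low counts elsewhere, but among the 18 genes with a mean of at least 500 counts 5 were missing, 27.8%, where 2.9% of 1104 such rows were. That count minimum was chosen after the values were seen. The 5 were eif1ax, which helps the small subunit scan for the start codon, and the large subunit genes rpl7, rpl8, rpl18 and rpl39. Their means over the other 4 libraries ran from 632 counts for eif1ax to 2073 for rpl8, and their levels against castle building could not be computed.

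Libraries of the same paradigm also differed sharply in a few genes. The level of rpl10a, a large subunit protein, was 483 CPM in pit digging replicate 1 and 8.51 in replicate 2, but 9.23 in isolated replicate 1 and 479 in replicate 2. These are 56.8-fold and 51.9-fold differences, on 17 and 19 counts in the low libraries. The high libraries were 1 of each paradigm, so the paradigm means were alike. The erythrocyte marker alas2 was listed in the 2 libraries with low rpl10a (33.4 and 36.6 CPM), with 3 other erythrocyte markers listed nowhere; its part in the difference was not tested. Of 4 pituitary markers, cga and pomc were listed in replicate 2 of pit digging (731 CPM summed) and of isolation (1253 CPM) and none in the other 4 libraries, and rho, of 4 retinal and pineal markers, was listed in isolated replicate 2 alone (9.23 CPM). Their part in the results that rest on those libraries, such as rpl18, eif3a and eif3m, was not tested. Marker CPM were scaled by the plain library total, without TMM factors.

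In 6 of the 71 genes a paradigm's replicates differed by more than 5-fold, where 3.3% of all rows did. Besides rpl10a they were eef1d (147 and 8.51 in pit digging), eif2s1 (7.29 and 103 in isolation), rpl10 (62.7 and 7.27 in isolation), rps3 (149 and 18.5 in pit digging) and rpl37 (50.2 and 8.01 in pit digging). The low value was in pit digging replicate 2 for eef1d, rps3 and rpl37, in isolated replicate 1 for eif2s1 and in isolated replicate 2 for rpl10. In contrast, 38 of the 71 genes varied by less than 1.5-fold within both pairs, where 49.0% of all rows did. The median difference was 1.28-fold in pit digging and 1.25-fold in isolation, against 1.30 and 1.24 over all rows. Where reads of a ribosomal protein gene can also match a copy elsewhere in the genome, the allele counting could split them, and the sources used here do not say how that was handled. The part of such copies in these differences was not tested.

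**Figure D4:**
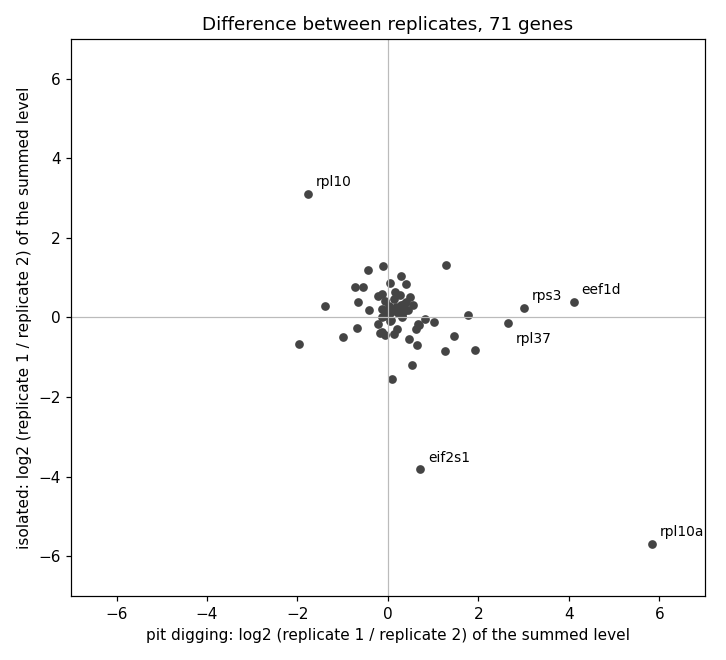
Log2 ratio of replicate 1 to replicate 2 of the summed level in pit digging (x axis) and isolation (y axis), 1 point for each of the 71 translation genes. Most points lie near the origin, and the 6 labelled genes differ by more than 5-fold between the libraries of a paradigm, rpl10a in opposite directions in the pairs.

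Genes that act around the translation machinery were called for the averaged allele ratio about as often as all rows. Over the 6 lists, which hold tpt1 by choice, 7 of 76 genes passed, 9.21% where 9.72% of all rows did. Of 23 mitochondrial ribosomal proteins 1 was higher on the C. virginalis allele (mrps18a, log2 ratio 0.87) and of 17 ribosome biogenesis genes 2 were: the nucleolar protein ncl (0.91) and the rRNA transcription factor ubtf (1.0). Of 12 genes of the mTORC1 and S6 kinase pathway, rragc was higher (1.08) and the mTORC1 inhibitor akt1s1 lower (-0.58). Termination, recycling and rescue had 0 of 12, and the 3 other synthetase subunits had 0. Of 9 genes of poly(A) and FMRP translational control, the list with tpt1, cpeb2 (0.61) and tpt1 (1.37) were higher.

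In level, no gene of these lists passed between pit digging and isolation. Of the 51 genes tested with castle building, 2 passed against pit digging (3.92%, where 4.69% of all rows did) and 4 against isolation (7.84%, where 6.72% did), all lower in castle building. The mitochondrial ribosomal protein mrps16, 1 of 13 tested, and the termination factor gspt1, 1 of 9, passed in both contrasts. The others, ubtf, 1 of 10 biogenesis genes, and tpt1, 1 of 8 in its list, passed against isolation. Like the level calls of translation genes above, these calls depended on having all 4 other libraries. For gspt1 the levels were 77.0 and 62.8 in pit digging, 75.8 and 85.7 in isolation and 11.6 in castle building. All 9 mTORC1 and S6 kinase genes measured in castle building had a lower fitted level there than in either other paradigm, and none of them passed. Median log2 differences were 1.32 for pit digging against castle building and -0.89 for castle building against isolation. Over all rows tested these medians were 0.05 and -0.05. Both contrasts share the castle building sample, and the share of all rows lower in both was not computed.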

How the data were processed

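The labels' protocols name Trizol extraction and standard Illumina library preparation. Per the file headers, the 6 tables that the authors deposited hold raw read counts of each parental allele by gene and a log2 ratio of these counts. The submitters' processing notes list STAR 2.4. Not given in the sources used here are the genome build, annotation, allele counter, informative sites and strand. Near-identical copies of ribosomal protein genes can share reads, which that counting could split, so these genes are uncertain to that extent. Each table held only genes with at least 6 counts on each allele, with the lowest sum in castle building at 21.

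The members, role groups and related lists were chosen with earlier results of these data known. The allele model, in edgeR 4.0.16 under R 4.3.3 with its quasi-likelihood test, had 1 intercept for each library (castle building as 1 sample) plus 1 allele term for each paradigm; the library size was that of both alleles together. Pit digging and isolation were fitted on the 8304 rows listed in their 4 tables, of which the 8254 with a mean sum of at least 20 were tested. Castle building contrasts used 5 samples and the rows listed in all 6 tables, of which 6844 were tested. All 71 and 54 members passed the filter. Sums were fitted with TMM and paradigm. Each fit had 2 residual degrees of freedom, with a biological coefficient of variation of 10.8% for the allele fits and 34.6 and 34.1% for the summed fits. Adjustment was by Benjamini-Hochberg over all rows tested. The SE of a log2 value was obtained from its F statistic (absolute value over the root of F). In castle building contrasts its spread comes from the replicated libraries, since the single sample leaves none of its own. Level CPM are sums scaled with TMM factors, computed separately for the fits with and without castle building. Marker CPM are sums scaled by the plain library total.

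Named genes were every member past the threshold, the 3 members of each role with the most counts, and the 5 with the largest log2 value per test among those with a mean sum of at least 50. Other genes are named from counts given in full or were chosen after their values were seen. Alternatives were DESeq2 1.42.0, other scalings, filters of 0 and 100, single alleles, a replicate block, castle building as 2 libraries or from 1 of them, and leaving out each library in turn. Scripts were tested on simulated data. Values of 1 member are not reported here, though it is included in every count. No genome or sequence table was used here, so no positions or sequences are given.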

Additional observations from a re-analysis of the deposited data

Results flagged for a closer look

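The translation-associated gene tpt1, which stands in the list of poly(A) and FMRP translational control and not among the 71 genes, had an allele ratio in castle building that differed from both other paradigms by a test of the difference. Its C. virginalis share was 72.1 and 72.9% in pit digging and 71.6 and 71.8% in isolation, but 95.4% in the castle building sample. The log2 ratio of pit digging minus that of castle building was -2.98 ± 0.21 (SE, edgeR adjusted p = 0.00474), and that of castle building minus isolation was 3.03 ± 0.21 (SE, adjusted p = 0.00586). Its summed level was 549 and 516 CPM in pit digging, 558 and 576 in isolation and 191 in castle building. Castle building is 1 sample, and the contrasts share it. The fit takes that sample to vary as much as the replicated groups do. The SE is therefore not a spread measured in castle building, and it need not cover counting error on the minor allele there. Counts of tpt1 on each allele are not given here, and no alternative setting was followed for this gene.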

How the results depend on the processing

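Counts are of translation genes called, each with the share of all rows called under the same setting (for DESeq2, of rows it gave an adjusted p). For the averaged allele ratio (5 called) DESeq2 called 2 (5.46%), and the fit of all paradigms 3 of the 54 genes in it (10.3%). Leaving out a library gave 2 to 3 (4.44 to 7.85%), and in isolation (3 called) 0 to 2 (1.04 to 4.47%), with DESeq2 calling 1 (2.45%). In pit digging (0 called) a minimum of 100 counts gave 1 (9.12%). In castle building (0 called), no filter gave 1 (1.72%), a minimum of 100 counts 1 (2.23%), both castle building libraries as separate samples 2 (9.04%), and leaving out a library 0 to 1 (0.701 to 2.21%). With separate castle building libraries the allele contrasts of castle building with pit digging and with isolation called 1 each rather than 0 (3.99 and 3.05%). For levels, pit digging against isolation called 1 with DESeq2 rather than 0 (1.89%). Against castle building, pit digging called 5 with DESeq2 (15.1%), 18 of 54 with separate libraries (38.7%), 0 with the replicate block (0%) and 0 to 3 with a library left out (0 to 4.84%). Isolation called 7 (14.5%), 21 of 54 (39.9%), 0 (0%) and 0 to 3 (0 to 6.85%) likewise. Leaving out a pit digging or isolated library, or adding the replicate block, also leaves fewer residual degrees of freedom. Leaving out a castle building library does not, since the other library then stood in for their mean.

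Replicate numbers are shared by the labels, and the main fits did not pair libraries by them. Across 8254 rows the replicate differences of the pairs correlated by -0.02 for the allele ratio and -0.094 for the level. A correlation over all rows cannot show whether some genes share a difference by replicate number, which was not tested. The pituitary markers cga and pomc were listed only in replicate 2 of pit digging and of isolation, while the erythrocyte marker alas2 did not follow the replicate number. With the replicate block the averaged allele ratio kept 5 calls, with eif4h in and rpl7 out, and the counts of the other allele tests did not change.

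Over single genes, 385 alternative values were computed for the genes and tests followed. Of these, 305 kept their direction and side of the threshold, 61 kept direction and lost the call, 19 kept direction and gained one, and 0 reversed. The genes followed include some that had not passed and so could not lose a call. All 61 losses thus fall among fewer than 385 values, and 61 of 385 understates how often a call was lost. Counts below 100 limit what an allele share can show, with a median range of 17.1 points over 4 libraries.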
